A study of Mus musculus with 2 samples.

Results

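The 10 BCL2 family genes described here were the rows of the deposited gene tables with the symbols Bcl2, Bcl2l1, Mcl1, Bcl2a1b, Bcl2a1d, Bax, Bak1, Bcl2l11, Bbc3 and Pmaip1, and all 10 were found among 20938 genes. They were chosen by symbol, with earlier results of these data known, and no measured value enters the rule. RNA-seq was performed on Treg cells (regulatory T cells) from the spleen of diabetic C57BL/6J mice that had received BALB/c islets under the kidney capsule, on day 7 after transplantation and without tolerance-inducing antibodies. One library came from Foxp3-Mettl14f/+ cKO mice, in which a Cre recombinase driven by the Foxp3 promoter removes 1 of the 2 alleles of Mettl14, a subunit of the m6A methyltransferase, in cells that express Foxp3. The other came from littermate controls, labelled wild type and described in the methods as Mettl14 f/f mice. Diabetes had been induced with STZ in both groups. The cells were enriched with a magnetic CD4+CD25+ kit, and the age of these mice and the number of mice pooled in a library are not given in the sources used here. Each genotype had 1 library, so no difference below has a replicate check.

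BCL2 family proteins decide at the outer mitochondrial membrane whether a cell undergoes apoptosis. Anti-apoptotic proteins such as BCL2, BCL-XL, MCL1 and A1 hold the pore-forming effectors BAX and BAK in check, and BH3-only proteins such as BIM, PUMA and NOXA bind the anti-apoptotic proteins or the effectors and trigger death. In Treg cells, survival is known to depend on interleukin 2, MCL1 and the limitation of BIM, and short-lived effector Treg cells are held to carry less BCL2.

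The BH3 region is the stretch through which these proteins bind each other, and it is shown for the members because it is what the family shares across the survival and death groups. A search of each coding sequence for leucine, 3 residues, glycine or alanine, and aspartate found 1 match in 7 members, 2 in Pmaip1, whose sequence is not printed here, and none in Bcl2a1b or Bcl2a1d. The 48 coding bases around each match are given 5′ to 3′ on the coding strand, with the 6 codons of the match in capitals (GENCODE vM21 on GRCm38). They lie at chr1:106712569-106712616 for Bcl2, chr2:152829691-152829738 for Bcl2l1, chr3:95659421-95659468 for Mcl1, chr7:45465991-45466038 for Bax, chr17:27022525-27022572 for Bak1, chr2:128147135-128147182 for Bcl2l11 and chr7:16313758-16313805 for Bbc3, each within 1 coding exon. Mcl1, Bcl2l11 and Bbc3 are on the plus strand and the other 4 on the minus strand.
Bcl2: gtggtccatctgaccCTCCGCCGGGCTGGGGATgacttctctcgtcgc
Bcl2l1: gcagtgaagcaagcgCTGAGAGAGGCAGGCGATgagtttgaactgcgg
Mcl1: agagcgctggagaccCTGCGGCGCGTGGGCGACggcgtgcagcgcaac
Bax: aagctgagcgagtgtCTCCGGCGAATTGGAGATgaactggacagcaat
Bak1: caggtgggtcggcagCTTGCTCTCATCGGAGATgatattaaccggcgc
Bcl2l11: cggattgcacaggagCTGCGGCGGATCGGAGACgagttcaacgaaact
Bbc3: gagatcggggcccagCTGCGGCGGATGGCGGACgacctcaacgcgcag
The capitals end in a glycine codon and an aspartate codon in 6 of these members, and Bbc3 has an alanine codon in place of the glycine codon.

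Bcl2a1b and Bcl2a1d are near-identical copies on chromosome 9, and their start is shown with that of a further copy, Bcl2a1a, because reads that fall where the copies are alike cannot be assigned to 1 of them. The first 60 coding bases are given on the coding strand, with the 6 positions at which any of the 3 copies differs in capitals. They lie at chr9:88957051-88957110 (Bcl2a1a, plus strand), chr9:89199360-89199419 (Bcl2a1b, plus strand) and chr9:88731660-88731719 (Bcl2a1d, minus strand).
Bcl2a1a: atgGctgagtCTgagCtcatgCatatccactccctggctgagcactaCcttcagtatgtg
Bcl2a1b: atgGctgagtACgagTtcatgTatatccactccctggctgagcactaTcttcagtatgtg
Bcl2a1d: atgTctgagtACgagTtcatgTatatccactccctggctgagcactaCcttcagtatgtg
Over their 516 coding bases, Bcl2a1b and Bcl2a1d differed at 6 positions, an identity of 98.8%. From Bcl2a1b to Bcl2a1d, with positions counted from 1 at the A of the start codon, these were G4T, T48C, A94C, G312A, C381G and T490A. Of all 50-base stretches of the Bcl2a1b transcript, 57.6% were also found in that of Bcl2a1d, and of all 100-base stretches 31.1%. The sources used here do not say how such reads were counted, so the split between the copies is uncertain.

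The deposited levels are scaled read counts, and whole reads could be recovered from them, 20239325 in control and 18327535 in cKO. A change is given on the log2(level + 1) scale, as cKO minus control, with an exact 95% interval (Clopper-Pearson) from the recovered reads that covers counting error only. A gene was called higher or lower past 1.5-fold, among genes whose level averaged 1 or more over both libraries. That is the fold threshold of the study, whose methods name a second limit that is not part of this rule. Mettl14 was at 917 in control and 741 in cKO, a log2 change of -0.31 (95% interval -0.45 to -0.16). Mettl3, which the deletion does not target, was at -0.53 (-0.66 to -0.39). The 15 T cell genes described below had a median of -0.32, close to the value of Mettl14. Whether the Mettl14 difference reflects the deletion was not tested. The genotype label of the cKO library reads Foxp3 knockdown, but the Foxp3 level was 1497 in control and 1548 in cKO (0.05, -0.06 to 0.15). The cKO library is named here after the protocol.

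All 14 Treg markers listed for this check were above 0 in both libraries. Their reads summed to 559 CPM (counts scaled to the library total) in control and to 562 CPM in cKO, with 2 genes past 1.5-fold higher and 2 lower. However, the libraries also held RNA of other cells, and its amount differed between the 2 libraries. With 1 library per genotype, a difference between genotypes and one between cell preparations cannot be told apart. The reads of 15 T cell genes (Cd3e, Cd4, Lck and others) summed to 2990 CPM in the control library and to 2235 CPM in the cKO library. Those of 14 granulocyte genes summed to 13527 and 17274, but this list was split. Of its genes, 3 were past 1.5-fold higher (Ngp, Camp and Cxcr2) and 3 past 1.5-fold lower (Mpo, Prtn3 and Ctsg). For 14 B cell genes the sums were 519 and 2499, for 14 macrophage genes 260 and 1002, for 12 erythroid genes 1932 and 722, and for 10 CD8 T and NK cell genes 290 and 532. The only defining marker at 0 was the macrophage gene Timd4, in the control library. In such bulk samples fewer cells of a type and less RNA per cell cannot be told apart, and BCL2 family genes are expressed in all of these cell types. The part of the other cell types in the values below was not tested.

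Of the 10 members, 3 were higher in the cKO library, namely Bcl2, Bbc3 and Pmaip1, none was lower, and 7 were within 1.5-fold. Over all 16659 genes past the filter, 17.2% were called higher and 24.2% lower. The members were all well expressed, with at least 188 reads in each library. Among the 10693 genes whose level averaged 100 or more, a background closer to them, 11.9% were higher and 8.71% lower. With an exact binomial test on the recovered reads added to the fold threshold, the same 3 members were called higher and none lower, beside 14.7% and 17.4% of the 14863 genes tested. That test compares these 2 libraries and not the genotypes. The median change of the members was 0.48 on the log2 scale, compared with -0.04 over all genes past the filter and 0.02 over genes with a mean of at least 100. The interval was above 0 for 8 members and included 0 for the other 2, Bax and Bak1.

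**Figure D1:**
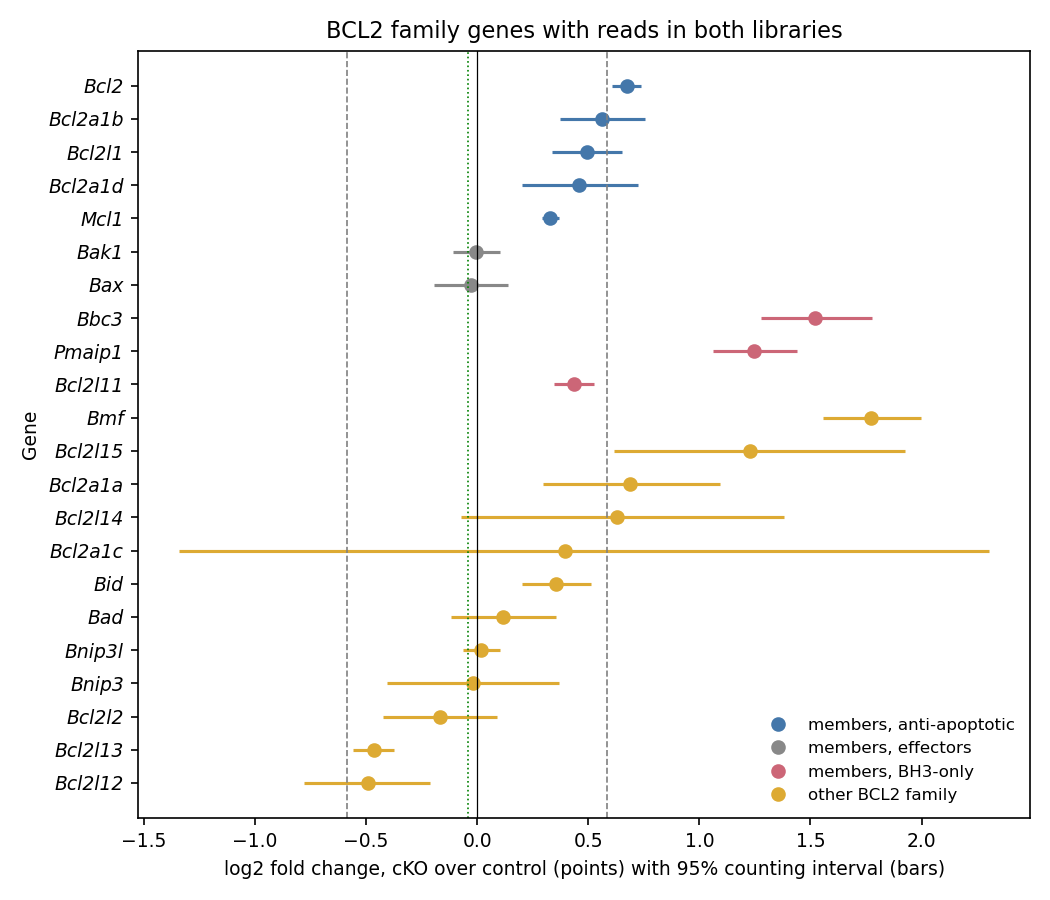
Change of each BCL2 family gene with reads in both libraries, as log2 of cKO over control (points) with its 95% counting interval (bars); dashed lines mark 1.5-fold and the dotted line the median of all genes at -0.04. Bbc3 at 1.52 and Pmaip1 at 1.25 lie to the right among the members, Bcl2 at 0.67 lies just past the line, and Bax and Bak1 lie next to 0.

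Levels of different genes are compared per kb of exon, as deposited level over the summed exon length of the gene. Mcl1, a short-lived survival protein needed by most lymphocytes and neutrophils, had the most RNA of the members, with 3361 per kb in control and 4226 in cKO. The effector Bak1 came next in the control library with 641 per kb, followed by Bcl2a1b with 487, Bax with 409 and Bcl2 with 341. Below them were Bcl2a1d with 254, Bcl2l11 with 229, Bcl2l1 with 129, Pmaip1 with 123 and Bbc3 with 85.6. The counting intervals of 3 neighbouring pairs overlapped in the control library, Bcl2a1b with Bax, Bcl2a1d with Bcl2l11, and Bcl2l1 with Pmaip1.

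In the cKO library Bcl2a1b came second with 720 per kb and Bak1 after it with 639, their intervals overlapping. Bcl2 with 544 per kb stood above Bax with 402, the reverse of the control library. The lower end was closer together, with Bcl2a1d at 351, Bcl2l11 at 310, Pmaip1 at 291 and Bbc3 at 246 per kb, and Bcl2l1 with 182 was the lowest on this length. Neighbouring intervals overlapped from Bax through Bcl2a1d, Bcl2l11 and Pmaip1 to Bbc3. The place of Bcl2l1 depended on the length used. Per kb of its longest transcript, in place of all its exons, it was at 230 in control and 324 in cKO, and Bbc3, at 100.3 and 288, was then the lowest in both libraries. Bcl2l11 moved from 229 and 310 to 366 and 495 with that length.

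**Figure D2:**
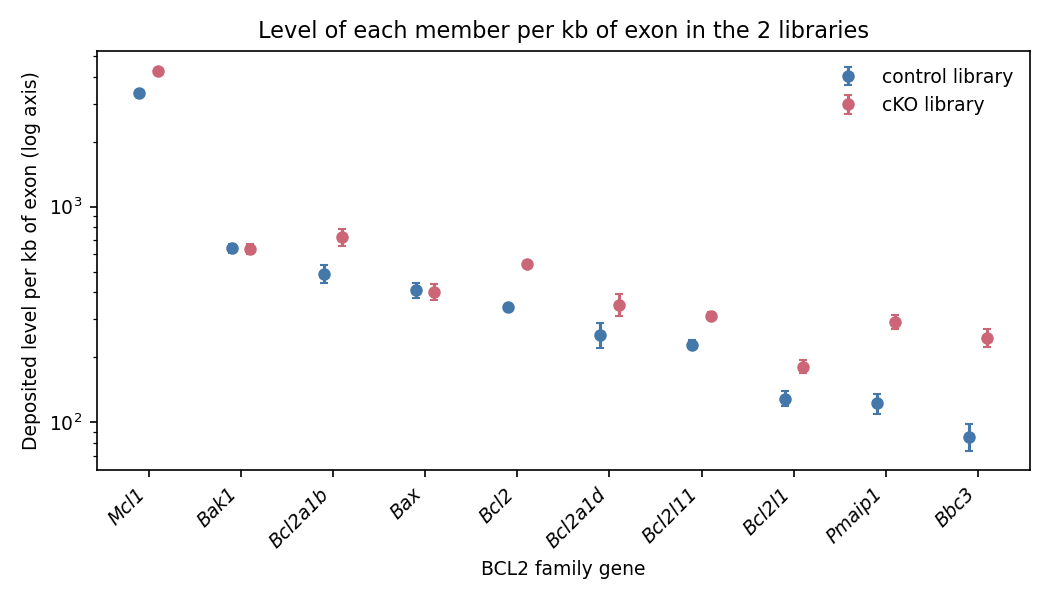
Deposited level per kb of exon (log axis) of each member in the control and cKO libraries, with 95% counting intervals (bars), ordered by the control level. Mcl1 is highest in both libraries at 3361 and 4226, and Bbc3 moves from the lowest place at 85.6 to 246.

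The 5 anti-apoptotic members all had higher levels in the cKO library, and 1 of them, Bcl2, passed 1.5-fold. Their median log2 change was 0.50, with single values from 0.33 to 0.67. Bcl2 (ENSMUSG00000057329, chr1:106538178-106714274, minus strand), the founding survival protein of the family, was at 3122 in control and 4977 in cKO. These levels stood on 3227 and 4377 reads, and the log2 change was 0.67 (0.61 to 0.74), higher than that of 90.5% of genes with a mean of at least 100. An antisense gene that is not in the tables, D630008O14Rik, shares 558 of the exon bases of Bcl2 (6.09%), and no source used here says whether the counting used strand.

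Mcl1 (ENSMUSG00000038612, chr3:95658788-95663176, plus strand) was at 11489 and 14445, from 11876 and 12703 reads, with the narrowest interval of the members (0.33, 0.29 to 0.37). It thus had the largest difference in level and the smallest log2 change of the 5 anti-apoptotic members. Bcl2l1 (ENSMUSG00000007659, chr2:152780668-152831728, minus strand), which encodes BCL-XL, was at 590 in control and 832 in cKO. Its log2 change was 0.50 (0.34 to 0.65), within 1.5-fold.

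Bcl2a1b and Bcl2a1d encode copies of A1, a survival protein induced by NF-kB in activated lymphocytes and abundant in granulocytes. Bcl2a1b (ENSMUSG00000089929, chr9:89199209-89207827, plus strand) was at 398 and 588, a change of 1.48-fold that lies just under the threshold (log2 0.56, 0.37 to 0.75). Bcl2a1d (ENSMUSG00000099974, chr9:88723285-88731914, minus strand) was at 220 and 302 (0.46, 0.20 to 0.72). Bcl2a1b also shares 401 exon bases, or 49.1% of its length, with Gm29094, a gene on the same strand that is not in the tables.

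Because of the alike stretches shown above, the copies were also summed. Bcl2a1a, Bcl2a1b and Bcl2a1d together had 731 reads in control and 911 in cKO, a log2 change of 0.55 (0.41 to 0.69). Bcl2a1b held 56.2% and 56.8% of these reads. The ratio of Bcl2a1b to Bcl2a1d reads was 1.07 times as high in the cKO library as in the control library, with an interval of 0.857 to 1.34 that includes 1. Bcl2a1a alone, with 93 and 128 reads, was past the threshold (0.69, 0.30 to 1.10), while the 2 members were not, and all 3 intervals overlap.

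The effectors had near-equal levels in the 2 libraries. Bax (ENSMUSG00000003873, chr7:45461697-45466898, minus strand) was at 645 in control and 633 in cKO, a log2 change of -0.03 (-0.19 to 0.14). Bak1 (ENSMUSG00000057789, chr17:27019810-27029009, minus strand) was at 1542 and 1537 (-0.0043, -0.11 to 0.10). At this depth a change of the size seen in Bcl2 lies outside both intervals. Bak1 shares 614 exon bases (25.5%) with Ggnbp1 on the opposite strand, and Bax shares 192 (12.2%) with Gm45808 on its own strand.

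The BH3-only members held the 2 largest changes. Bbc3 (ENSMUSG00000002083, chr7:16308393-16318205, plus strand) encodes PUMA, a killer protein known as a target of p53 and FOXO factors that can bind every anti-apoptotic member. It was at 182 in control and 523 in cKO, from 188 and 460 reads. This was a 2.87-fold difference, a log2 change of 1.52 (1.28 to 1.78), above 98.3% of genes with a mean of at least 100.

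Pmaip1 (ENSMUSG00000024521, chr18:66458533-66465565, plus strand) encodes NOXA, which binds MCL1 and A1 and promotes the breakdown of MCL1. It was at 335 and 795, from 346 and 699 reads, a 2.37-fold difference. Its log2 change was 1.25 (1.06 to 1.44), above 97.3% of genes with a mean of at least 100. Bbc3 and Pmaip1 are also on the study's own list of changed genes from these libraries, so their values here are not independent of that list.

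Bcl2l11 (ENSMUSG00000027381, chr2:128126038-128162547, plus strand) encodes BIM, the BH3-only protein that removes T cells after withdrawal of cytokine. It had the most reads of the 3, with 1904 in control and 2191 in cKO, and its levels were 1842 and 2492. Its log2 change of 0.44 (0.35 to 0.53) was within 1.5-fold, and its interval lies below those of Bbc3 and Pmaip1. The 3 BH3-only members thus did not change alike.

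A ratio of reads between members within a library does not depend on how the 2 libraries are scaled to each other. Per 100 reads of Bcl2 there were 5.83 reads of Bbc3 in control and 10.5 in cKO, a ratio 1.80 times as high (95% counting interval 1.51 to 2.16). Per 100 reads of Mcl1 there were 2.91 and 5.50 reads of Pmaip1, which was 1.89 times as high (1.65 to 2.16). Both death genes therefore stood higher relative to the survival gene they are set against here.

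Bcl2l11 moved the other way against Bcl2, with 59.0 reads per 100 of Bcl2 in control and 50.1 in cKO, 0.848 times as high (0.785 to 0.916). Against Mcl1 it was 1.08 times as high (1.01 to 1.15). The effectors had fewer reads relative to the survival genes in the cKO library. Bax per 100 reads of Bcl2 was 20.7 and 12.7, or 0.616 times as high (0.544 to 0.696), and Bak1 per 100 reads of Mcl1 was 13.4 and 10.6, or 0.793 times as high (0.734 to 0.857).

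Summed by role, the BH3-only members had 14.9 reads per 100 reads of the anti-apoptotic members in control and 18.02 in cKO, 1.21 times as high (1.14 to 1.28). The effectors had 13.8 and 10.3, 0.742 times as high (0.696 to 0.792). These sums weight each gene by its reads, so Bcl2l11 and Mcl1 make up most of theirs. Within roles, the ratio of Bax to Bak1 was 0.985 times as high (0.859 to 1.13) and that of Bbc3 to Pmaip1 was 1.21 times as high (0.974 to 1.51), and both intervals include 1. The ratio of Bcl2 to Mcl1 was 1.27 times as high (1.20 to 1.34).

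**Figure D3:**
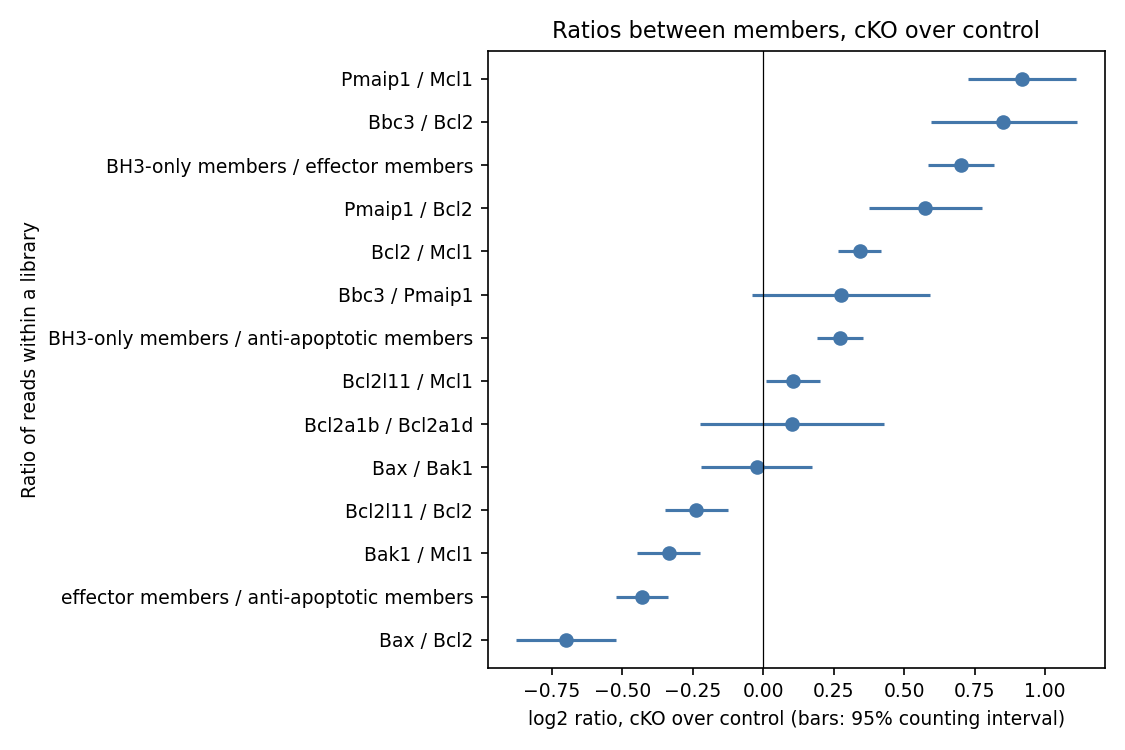
Log2 of the ratio of reads between members in the cKO library over the same ratio in the control library (points) with 95% counting intervals (bars), sorted by size. Pmaip1 over Mcl1 at 0.92 and Bbc3 over Bcl2 at 0.85 are at the top, and Bax over Bcl2 at -0.70 is at the bottom.

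The scaling between the libraries moved the count of members called. With the deposited, TMM or median-of-ratios scaling 3 members were higher, and with library totals 2, since Bcl2 came to 0.58, just under the threshold. When the T cell genes were set equal between the libraries, 8 members were higher, all but Bax and Bak1, which then stood at 0.29 and 0.31. The share of all calls that were higher went from 41.6% to 60.3% with it, and the median of all genes from -0.04 to 0.27. Bbc3 was between 1.43 and 1.84 and Pmaip1 between 1.16 and 1.56 over these scalings, and no member was called lower under any of them. Bax and Bak1 were the members whose sign differed between scalings.

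**Figure D4:**
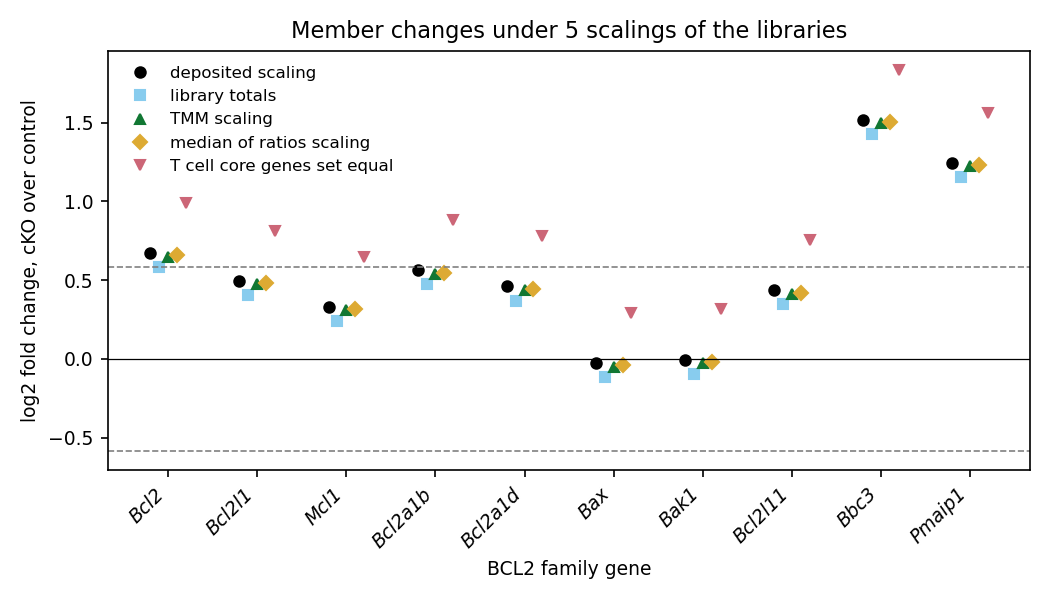
Log2 change of each member, cKO over control, under 5 scalings of the libraries, with dashed lines at 1.5-fold. Setting the T cell genes equal places 8 members above the upper line, while library totals leave 2, Bbc3 and Pmaip1, above it.

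Relative to the summed reads of the T cell genes, Bbc3 was 3.62 times as high in the cKO library (3.05 to 4.29, normal approximation) and Pmaip1 2.99 times as high (2.62 to 3.40). Bcl2 was 2.004 times as high (1.91 to 2.10) and Mcl1 1.58 times as high (1.54 to 1.63). The smallest of these ratios were 1.23 for Bax (1.10 to 1.38) and 1.25 for Bak1 (1.16 to 1.35).

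Outside the members, 16 further BCL2 family genes were in the tables, of which 14 passed the filter and Bok and Hrk had no reads. Of the 14, 5 were higher, 1 was lower and 8 were within 1.5-fold, with a median log2 change of 0.24. Bmf, a BH3-only gene, had the largest change among family genes with reads in both libraries, with 229 reads in control and 667 in cKO (1.77, 1.56 to 1.999), and it too is on the study's list of changed genes. Bcl2l15 had 31 and 63 reads (1.23, 0.61 to 1.93), and Bcl2l14 had 30 and 40, where the interval includes 0 (0.63, -0.07 to 1.38). Bcl2l10, with 0 and 5 reads, was 1.96-fold higher when the control library was set to a floor of 3 reads. Its log2 interval ran from 0.11 upward.

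The gene called lower was Bik, a BH3-only gene, with 27 reads in control and 0 in cKO. It was 7.66-fold lower when cKO was set to a floor of 3 reads, and its log2 interval ran from -2.54 downward. A count of 0 was common at this level, however, as 26.9% of the 1012 genes with 20 to 39 control reads had none in cKO. Of the better covered genes, the BH3-only genes Bid and Bad were at 0.36 (0.20 to 0.51) and 0.12 (-0.12 to 0.35). The survival gene Bcl2l2 was at -0.17 (-0.42 to 0.09). Bcl2l13 at -0.47 and Bcl2l12 at -0.49 had intervals below 0 but stayed within 1.5-fold.

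Downstream of the members, none of 8 apoptosome and caspase genes was past 1.5-fold in either direction, and their median log2 change was -0.02. Cycs, the cytochrome c gene, was at -0.48 with 1589 and 971 reads. Apaf1, which assembles the apoptosome, was at 0.27, and the initiator gene Casp9 was at 0.15. Of 7 inhibitor of apoptosis (IAP) genes and their antagonists, 2 were higher, 1 was lower and 4 were within 1.5-fold, with a median of 0.05. Xiap, which blocks caspases directly, was at 0.98 and Birc3 at 1.01, and both were higher. Birc5, which also serves in cell division, was lower at -0.70. The antagonists Diablo at -0.49 and Htra2 at -0.47 had lower levels within the threshold.

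**Figure D5:**
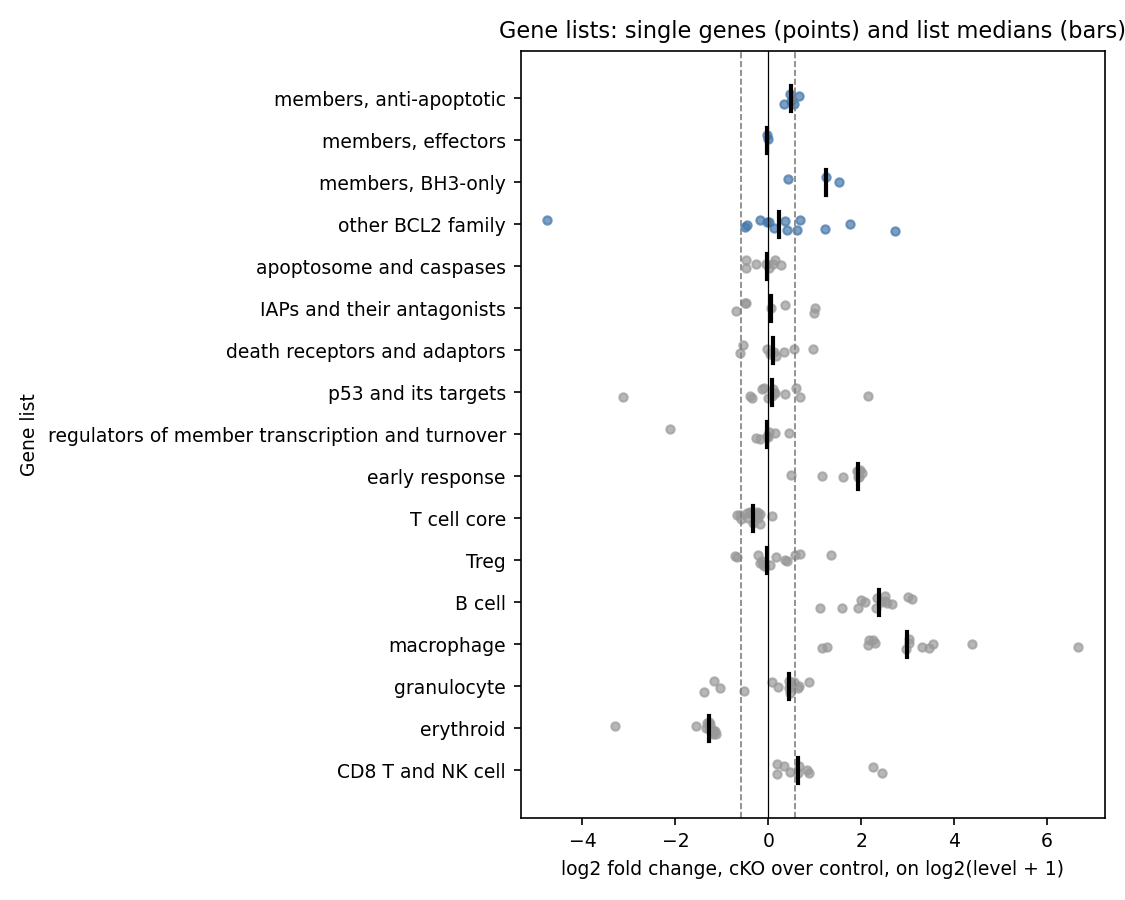
Log2 change of single genes (points, spread vertically for legibility) and list medians (bars) for the members by role, related lists and cell type markers, with dashed lines at 1.5-fold. The BH3-only members have a median of 1.25 and the effectors of -0.02, while the B cell list has a median of 2.38, the macrophage list of 2.99 and the erythroid list of -1.27.

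The promoters of the members, from 250 bases before to 50 after each start, were searched on both strands for letters bound by factors that are known to act on BH3-only genes. RefSeq held 14 promoters (GRCm38.p6) for 9 of the 10 members, all but Pmaip1, so nothing in this search covers Pmaip1. The FOXO core GTAAACA was found for Bcl2l11 and Bbc3, the 2 members of the 9 with a BH3-only role, and in 3.65% of all 32851 promoters. It lay in 1 of the promoters of each of these 2 genes. The same search found no FOXO core for Bmf, Bid, Bad or Hrk, BH3-only genes outside the members, so the match does not mark the BH3-only role. Members are counted here by gene, while the shares of all promoters count single promoters. The matches are shown with their surroundings because they are the only 2 among the members. The 7 bases of the core are in capitals, and in Bbc3 they are its reverse complement.
Bcl2l11: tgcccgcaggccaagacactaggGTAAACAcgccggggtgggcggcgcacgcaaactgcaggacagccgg
Bbc3: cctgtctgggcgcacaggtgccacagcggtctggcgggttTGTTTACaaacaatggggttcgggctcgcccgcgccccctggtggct
The Bcl2l11 stretch is chr2:128125788-128125857, with the match 227 bases before the start, and the Bbc3 stretch is chr7:16310054-16310140, with the match 167 bases before the start of 1 of its transcripts and inside the first intron of longer ones. The p53 half-site was found for Bax (8.36% of all promoters), the NF-kB site for Bbc3 and Bcl2l1 (8.46%), and the AP-1 site (TGACTCA or TGAGTCA) for no member (5.20%). No FOXO core overlapped a match to another of these motifs. A match is a stretch of letters and not a measured binding site. The genes of the FOXO factors, Foxo1 and Foxo3, were at 0.44 and -0.01 on the log2 scale.

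METTL14 is part of the enzyme that marks adenosines in mRNA, often in the letters GGACT, so these letters were counted in the longest transcript of each member. They occurred from 0 times per kb in Bcl2a1b and Bcl2a1d to 2.76 times in Bbc3, followed by 2.73 in Bax and 2.34 in Mcl1. Pmaip1 had 0.733 per kb and Bcl2 1.25. The median of the members was 1.21 per kb, compared with 1.01 over 20516 genes, in which the middle of the distribution ran from 0.585 to 1.48. The members with the most of these letters, Bbc3 and Bax, had the largest change and one of the smallest. No m6A measurement was analysed here.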

How the data were processed

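Treg cells from the spleen were sequenced in 1 control and 1 cKO library (mRNA, Illumina). The authors aligned the reads to mm10 with TopHat according to the methods, while the submitters' processing notes name bcl2fastq 2.0, STAR, StringTie and DESeq2. The deposited values are a signal: counts that were scaled by 1 factor in each library, as 100% of values were whole multiples (within 0.001) of the smallest value, 0.967 and 1.14. Dividing by it recovered the reads. How reads shared by gene copies or strands were counted is not given in the sources used here.

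Changes were computed with a pseudocount of 1, a minimum mean level of 1 and a 1.5-fold threshold. No p-value is given across genes, which are not replicates. The added exact binomial test on recovered reads (two-sided, at least 10 reads, Benjamini-Hochberg adjusted p under 0.1) used the deposited scaling between the libraries. TMM scaling, from edgeR 4.0.16 in R 4.3.3, served only as an alternative. The 95% intervals reflect counting error alone, because each genotype had 1 library. They treat each recovered read as independent, and the reads carried no molecular identifiers. Other steps used Python 3.11.15 (Biopython 1.88, matplotlib 3.10.9, pandas 2.3.3, scipy 1.17.1, numpy 2.4.6), and the steps were tested on simulated data. Symbols of 20516 of the 20938 genes were found in GENCODE vM21 (GRCm38).

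The members and gene lists, and the rule that all members and any list gene may be named, were chosen with earlier results of these data known. Alternatives were pseudocounts of 0.1 and 5, no filter or a minimum mean of 10, a 2-fold threshold, genes above 0 in both libraries only, longest-transcript lengths and 4 other scalings. The background over genes with a mean of at least 100 was added after seeing the data. Trac, Trbc1 and Trbc2 of the T cell list had no value here.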

Additional observations from a re-analysis of the deposited data

How the results depend on the processing

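No paired analysis was possible because there is only 1 library of each genotype. Of the 60 recomputed member changes, 13 fell outside the counting interval of the reported value. None changed sign in a called value, but none could have done so. A called value is at least 0.585 from 0, the scalings shifted log2 changes by -0.09 to 0.32, and a pseudocount cannot change a sign. Setting the T cell genes equal moved the members called higher from 3 to 8 and all genes called higher from 2864 to 4838. It raises the value of a cKO read over a control read by 0.32 on the log2 scale, and genes near 0 reads shift by less because of the pseudocount. The median of all genes moved from -0.04 to 0.27 with it, so that 60.3% of calls were higher in place of 41.6%. List medians under it were 0.81 (anti-apoptotic), 0.30 (effectors), 1.56 (BH3-only), 0.55 (other BCL2 family), 0.30 (apoptosome), 0.37 (IAPs), 0.41 (death receptors), 0.40 (p53), 0.30 (regulators), 2.25 (early response), 0 (T cell), 0.30 (Treg), 2.70 (B cell), 0.77 (granulocyte), -0.95 (erythroid) and 0.97 (CD8 T and NK cell). Library totals gave medians of -0.038 for IAPs, -0.11 for regulators, -0.41 for T cell genes and 0.36 for granulocyte genes. All genes called lower numbered 4028, compared with 2035 at a minimum mean of 10, 2583 with the binomial test and 1904 among genes above 0 in both libraries, where 53.4% of calls were higher. A 2-fold threshold left 1722 genes higher and, of the members, Bbc3 and Pmaip1. With longest-transcript lengths, 6 of the 10 members kept their place in the order of control levels. Low genes are the least certain. Of genes with 5 to 9 control reads, 63.5% had none in cKO, although the library totals were alike, and the cause was not tested.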

Other observations

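Other routes to cell death were measured in the same 2 libraries, with lists that share no gene with the members. Of 10 death receptor and adaptor genes, 1 was higher, 1 was lower and 8 were within 1.5-fold, and their median log2 change was 0.09. Fasl, the ligand with which activated T and NK cells kill, had 188 reads in control and 315 in cKO (0.97). Tnfrsf10b, a receptor for TRAIL, had 167 and 93 reads (-0.61). Cflar, which encodes the caspase 8 inhibitor c-FLIP, was at -0.54 with 3993 and 2335 reads, and Tnfrsf1a, a TNF receptor, was at 0.56 with 1905 and 2387, both within 1.5-fold.

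Bbc3 and Pmaip1 are known p53 targets, and of 14 genes of the p53 list 3 were higher, 1 was lower and 10 were within 1.5-fold, with a median of 0.09. Mdm4, an inhibitor of p53, had 2022 and 7636 reads (2.15) and Sesn1 had 1543 and 2123 (0.69). Cdkn1a, which encodes the cell cycle inhibitor p21, had 104 and 134 reads and lay just past the threshold, with a wide interval (0.59, 0.22 to 0.98). Trp53 was at -0.09 and Mdm2 at -0.14. The gene called lower, Eda2r, had 8 and 0 reads, 2.27-fold lower when cKO was set to a floor of 3 reads. Its log2 interval ran from -0.54 downward. A count of 0 was the usual outcome at this level, as 63.5% of genes with 5 to 9 control reads had none in cKO.

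Among 8 regulators of member transcription and turnover the median was -0.02. The gene past the threshold was Trib3, a gene of the integrated stress response, with 54 and 10 reads (-2.11), while Ddit3 of the same response was at -0.27. Huwe1 and Usp9x, which encode enzymes that add ubiquitin to MCL1 and take it off, were at -0.02 and -0.18. Of 10 early response genes 9 were higher, among them Fos at 1.93, Egr1 at 1.95 and Nr4a1 at 2.02, and the tenth, Ier2, was at 0.50. Early response genes are known to be induced during cell isolation as well as by activation, and their part in the member changes was not tested.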
